A study of Mus musculus with 15 samples.

Results

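Axl, Mertk, Tyro3, Gas6, Pros1, Timd4, Havcr2, Cd36 and Mfge8 encode receptors and bridging proteins through which phagocytes bind apoptotic cells. These 9 genes were chosen by name, as the TAM receptors (Tyro3, Axl and MerTK), their ligands and other receptors or bridges for dead cells, at a time when earlier results of these data were known. All 9 were found by symbol among the 38924 genes counted, and all 9 were among the 14456 genes that passed the filter on low counts. Tyro3 passed it through LN libraries alone, so a difference of this gene between LN and spleen was partly fixed by the filter.

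RNA was sequenced from 15 libraries of naïve C57BL/6 mice aged 6 to 8 weeks, with 3 libraries for each of 5 sorted subtypes. The spleen gave CD8+ DCs, CD4+ DCs and Ly6C+ monocytes, and the lung lymph node (LN) gave CD103+ DCs and CD11b+ DCs. DCs were sorted as CD11c+ MHCII+ cells that carried the named marker, and monocytes as Ly6C+ CD11b+ cells, all from a gate on live, single, CD45+ cells without lineage markers. Splenic CD8+ and LN CD103+ DCs belong to the DC1 lineage, which is known for cross-presentation of antigen from dead cells, and splenic CD4+ and LN CD11b+ DCs to the DC2 lineage. No agent was given. Cells of each library were pooled from several mice. LN and spleen came from different cohorts, so organ and cohort cannot be told apart. By the paper, the LN DCs were migratory cells picked out by high MHCII, while the spleen holds resident DCs only. Organ and this difference in sort therefore cannot be told apart. DCs were enriched on CD11c beads and monocytes on CD11b beads, so cell type and enrichment cannot be told apart either. None of the 9 proteins is named among the markers of these sorts. Libraries held 4531243 to 10233914 counts on genes, and 1 count was worth 0.0972 to 0.221 CPM (counts scaled to library size) after TMM scaling.

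Dying cells expose phosphatidylserine on their outer membrane, and phagocytes read it either directly or through soluble bridges. AXL, MerTK and TYRO3 are receptor tyrosine kinases that bind phosphatidylserine through bridges, and they also restrain inflammatory signalling in macrophages and DCs. GAS6 bridges to each of them, and protein S to MerTK and TYRO3. TIM-4 and TIM-3 bind phosphatidylserine themselves, MFG-E8 links it to integrins, and CD36 is a scavenger receptor for oxidised lipids and apoptotic cells.

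The labels were first checked against marker genes, each list summed as CPM in replicates 1, 2 and 3. The 7 DC1 markers, led by Irf8, summed to 3604, 4437 and 5609 in splenic CD8+ DCs and 1136, 800 and 823 in LN CD103+ DCs, against 140 to 168 in splenic CD4+ DCs and 293 to 447 in LN CD11b+ DCs. The 8 DC2 markers, led by Sirpa in both DC2 subtypes, summed to 1847, 2821 and 2647 in splenic CD4+ DCs and 1014, 883 and 951 in LN CD11b+ DCs, against 103.2 to 285.1 in splenic CD8+ DCs and 53.6 to 76.4 in LN CD103+ DCs. The 5 markers of migratory or mature DCs, led by Fscn1, summed to 13180, 15460 and 15210 in LN CD103+ DCs and to 7554, 8637 and 6938 in LN CD11b+ DCs. In splenic DCs the same list reached 224 to 610. The 7 monocyte markers, led by Csf1r, summed to 6703, 6818 and 7363 in the monocyte libraries, against 620 or less in every DC library. The DC2 list, led by Sirpa, reached 2423 to 2718 in monocytes as well, so it does not separate these from DC2, and the DC1 list summed to 480 to 599 in monocytes, above LN CD11b+ DCs. Within each organ the DC1, DC2 and monocyte lists were highest as labelled, apart from the DC2 list in splenic monocytes.

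**Figure D1:**
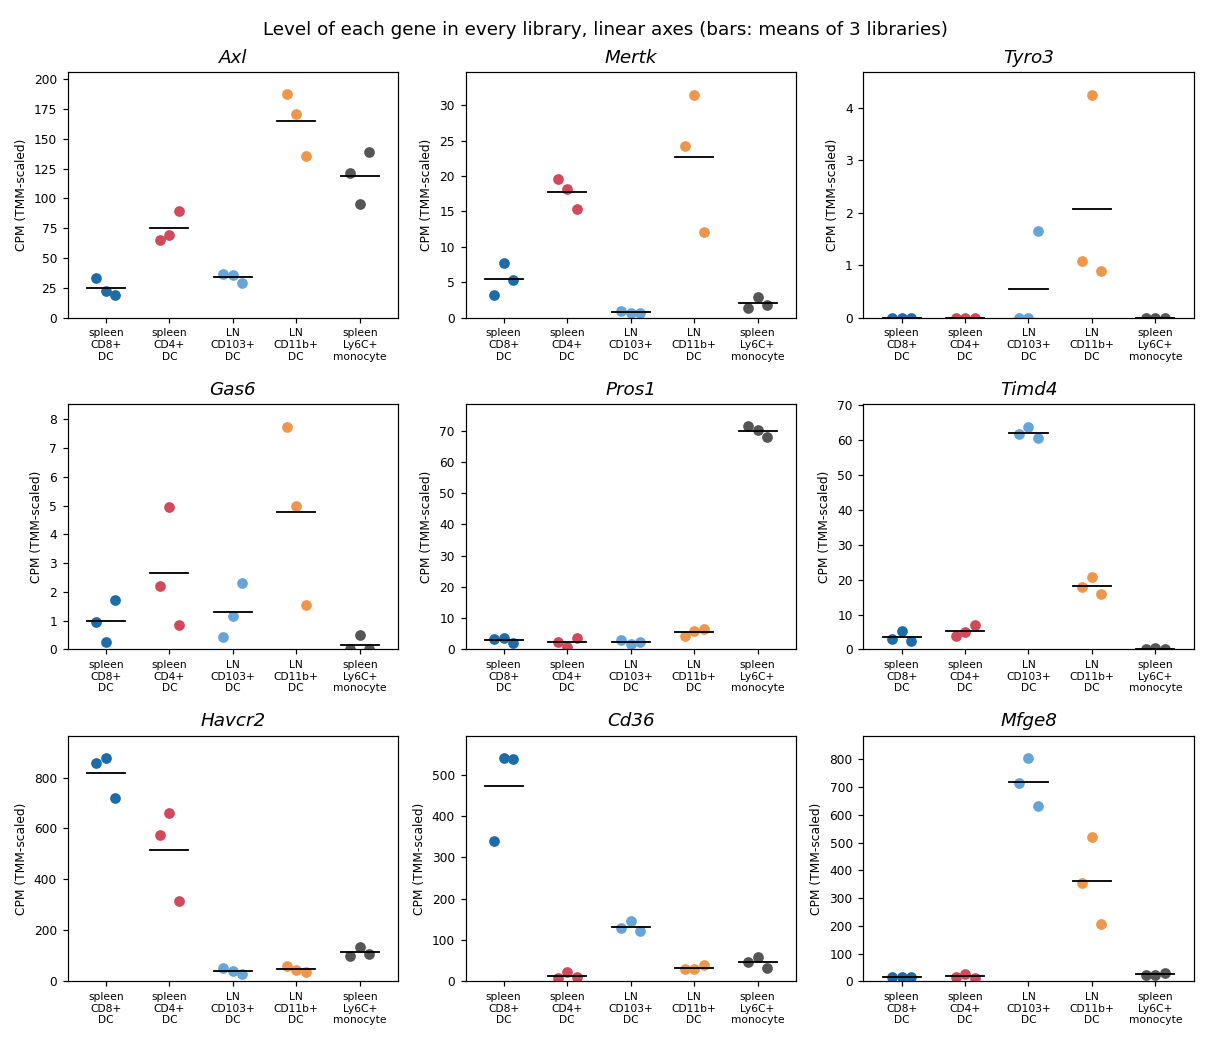
Each panel shows one of the 9 genes, with its level in TMM-scaled CPM on a linear axis from 0 for the 3 libraries (points) and their mean (bar) of each subtype. Axl and Mertk were highest on average in LN CD11b+ DCs, Pros1 stood at 67.9 to 71.4 CPM in monocytes, Havcr2 and Cd36 peaked in splenic CD8+ DCs, and Timd4 and Mfge8 peaked in LN CD103+ DCs.

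Axl (ENSMUSG00000002602, mm10 chr7:25757273-25788705, minus strand) encodes the TAM receptor that binds GAS6. Its level was 33.1, 22.1 and 19 CPM in the libraries of splenic CD8+ DCs and 65.5, 69.6 and 89.6 CPM in those of splenic CD4+ DCs. In LN CD103+ DCs it was 36.7, 35.7 and 29.2 CPM, and in LN CD11b+ DCs 188, 171 and 136 CPM. Monocytes held 121, 95.4 and 139 CPM. Both DC2 subtypes therefore lay above both DC1 subtypes in every library, and the monocytes overlapped LN CD11b+ DCs only. The levels come from bulk RNA of sorted cells, in which fewer expressing cells and less RNA per cell cannot be told apart.

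By edgeR's quasi-likelihood test with Benjamini-Hochberg adjustment over all 14456 genes, used for every adjusted p in this report, Axl was lower in DC1 than in DC2 in both organs. The log2 difference was -1.60 (SE 0.23, adjusted p = 4.81e-05) in spleen and -2.28 (SE 0.23, adjusted p = 2.23e-06) in LN, or 3.02-fold and 4.87-fold on mean CPM. Axl was also 2.20-fold higher in LN CD11b+ than in splenic CD4+ DCs (log2 1.14, SE 0.23, adjusted p = 0.000642), whereas LN CD103+ and splenic CD8+ DCs were not shown to differ (adjusted p = 0.119). Between the DC2 subtypes 6 of 7 monocyte markers were higher in LN CD11b+ DCs too. The list as a whole summed alike, to a mean of 545 CPM in splenic CD4+ DCs (Csf1r 516 CPM) and 542 CPM in LN CD11b+ DCs (Csf1r 342 CPM). The part of these markers in the Axl difference was not tested. In order of mean level, LN CD11b+ DCs and monocytes were not shown to differ (adjusted p = 0.0838), monocytes exceeded splenic CD4+ DCs (adjusted p = 0.0206), and these exceeded LN CD103+ DCs (adjusted p = 0.000448). The step from monocytes to splenic CD4+ DCs did not pass without splenic CD4+ DC replicate 1 (adjusted p = 0.0737) or 2 (0.0601), or without monocyte replicate 1 (0.0516) or 3 (0.098). That from LN CD11b+ DCs to monocytes passed without LN CD11b+ DC replicate 3 (0.0483) and in a fit of these 2 subtypes alone (0.0276), and so did the rise from splenic CD8+ to LN CD103+ DCs without splenic CD8+ DC replicate 1 (0.0221).

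Mertk (ENSMUSG00000014361, chr2:128698956-128802894, plus strand) encodes the TAM receptor best known for clearance of apoptotic cells by macrophages. It was read at 3.23, 7.69 and 5.27 CPM in CD8+ DCs of the spleen and at 19.6, 18.2 and 15.3 CPM in its CD4+ DCs. LN CD103+ DCs held 0.977, 0.585 and 0.663 CPM, or 16 counts over 3 libraries, and LN CD11b+ DCs 24.3, 31.5 and 12.2 CPM. The monocyte libraries held 1.38, 2.92 and 1.84 CPM. Every LN CD103+ DC library lay below every other library of the series, and DC2 libraries lay above all others.

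The DC1 to DC2 difference of Mertk was thus 3.28-fold in spleen (log2 -1.72, SE 0.38, adjusted p = 0.00239) and 30.6-fold in LN (log2 -4.92, SE 0.48, adjusted p = 1.16e-06). Within DC1, Mertk was 7.28-fold lower in LN than in spleen (log2 -2.84, SE 0.48, adjusted p = 9.31e-05), while the DC2 subtypes of both organs were not shown to differ (log2 0.36, SE 0.36, adjusted p = 0.48). The difference between these organ effects was itself past the threshold (log2 -3.20, SE 0.60, adjusted p = 0.00186). Monocytes lay between splenic CD8+ DCs (adjusted p = 0.0147) and LN CD103+ DCs (adjusted p = 0.02). The first of these steps did not pass without splenic CD8+ DC replicate 2 (0.0799) or monocyte replicates 1 (0.0619) or 3 (0.056). The other did not pass without LN CD103+ DC replicates 2 (0.0778) or 3 (0.0539), or without monocyte replicate 2 (0.123), nor with limma on log2(TPM + 1) (0.0748).

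Markers of tissue macrophages, which express Axl and Mertk, were read beside these genes. The 11 markers summed to 1479, 2195 and 1839 CPM in splenic CD4+ DCs, with Adgre1 (664 CPM) most abundant and Lyve1 at 0. They reached 743, 677 and 539 CPM in LN CD11b+ DCs, led by Vcam1 (266 CPM), 523, 404 and 370 CPM in splenic CD8+ DCs and 199, 210 and 233 CPM in LN CD103+ DCs. In monocytes they summed to 798, 1032 and 906 CPM, with Lyve1 at 0. Of the 11 markers, 9 to 10 had a count in every library of each subtype. The list was thus higher in DC2 than in DC1 libraries, as Axl and Mertk were, and its part in those differences was not tested.

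Tyro3 (ENSMUSG00000027298, chr2:119797733-119818104, plus strand) encodes the remaining TAM receptor. It had no count in any of the 9 splenic libraries, where 3 counts over a subtype would be 0.122 to 0.153 CPM. LN CD103+ DCs held 10 counts, all in replicate 3, and LN CD11b+ DCs held 10, 29 and 4 counts (1.08, 4.25 and 0.884 CPM). The mean CPM of LN CD11b+ DCs was thus at least 13.5-fold that of splenic CD4+ DCs (adjusted p = 0.0207), at least 16.9-fold that of splenic CD8+ DCs (adjusted p = 0.013) and at least 15.9-fold that of monocytes (adjusted p = 0.012), each against a floor of 3 counts over the subtype. Such floors cover counting error only. As LN libraries alone carried Tyro3 through the filter, these tests are no independent evidence of a difference from the spleen, and the counts of genes below are also given without Tyro3. None of these 3 calls held by DESeq2 (adjusted p = 0.331, 0.273 and 0.26), and the first did not hold without splenic CD4+ DC replicate 1 (adjusted p = 0.0569). All 3 are lost without LN CD103+ DC replicate 3 or LN CD11b+ DC replicate 1 or 2, because Tyro3 then no longer passes the filter. Against LN CD103+ DCs the splenic subtypes did not pass (adjusted p = 0.0833, 0.102 and 0.0807 for CD8+ DCs, CD4+ DCs and monocytes), but they did with no filter (0.0166, 0.0265 and 0.0174), and CD8+ DCs and monocytes also without LN CD103+ DC replicate 1 or 2 (0.0451 to 0.0493).

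Markers of other LN cells, which the gate on CD45+ cells without lineage markers should remove, were counted beside Tyro3. The 6 T cell markers, led by Lck, summed to 98.2, 104 and 133 CPM in LN CD103+ DCs and 66.8, 75.5 and 99.2 CPM in LN CD11b+ DCs, with a count for all 6 in every LN library, against 6.57 or less in splenic libraries. The 10 markers of follicular DCs or fibroblasts, led by Ccl19, summed to 56.5, 17.3 and 16.7 CPM in LN CD103+ DCs and 24.7, 16.6 and 26.5 CPM in LN CD11b+ DCs, with Pdpn at 0 in the latter. Splenic DC libraries held 1.72 to 15.3 CPM of this list and monocytes 0.486 or less. Both lists were thus higher in LN than in splenic libraries, as Tyro3 was, and their part in its difference was not tested.

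Between the TAM receptors, levels were set side by side per transcript length, as deposited TPM (length-scaled transcript counts). Axl made up 78.9% ± 9.71 (SD, n = 3) of the summed TAM receptor TPM for splenic CD8+, 78.1% ± 4.77 for splenic CD4+, 96.1% ± 2.56 for LN CD103+ and 85.9% ± 4.6 for LN CD11b+ DCs, and 97.9% ± 1.17 for monocytes. The sum itself was 14.9 ± 3.15 TPM in splenic CD8+ DCs and 15.8 ± 1.32 TPM in LN CD103+ DCs, against 47.5 ± 9.70 TPM in splenic CD4+ DCs, 91.5 ± 14.2 TPM in LN CD11b+ DCs and 62.2 ± 11.7 TPM in monocytes. Axl was the most abundant TAM receptor transcript in each of the 15 libraries, with its lowest share at 71.3%.

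Gas6 (ENSMUSG00000031451, chr8:13465374-13494535, minus strand) encodes the bridge that all 3 TAM receptors bind. It was scarce throughout, at 0.956, 0.270 and 1.72 CPM for splenic CD8+, 2.19, 4.94 and 0.832 CPM for splenic CD4+ and 0.419, 1.17 and 2.32 CPM for LN CD103+ DCs. LN CD11b+ DCs held 7.74, 4.99 and 1.55 CPM, and monocytes a single library with 5 counts and 0 in both others. Neighbours in the order of mean levels were not shown to differ in any of the 4 steps (adjusted p = 0.441, 0.339, 0.77 and 0.113 from the top), although the last, from splenic CD8+ DCs to monocytes, passed with no filter (0.0432) and without monocyte replicate 2 (0.031). Monocytes were lower than LN CD11b+ DCs (log2 -4.47, SE 1.03, adjusted p = 0.00147) and than splenic CD4+ DCs (log2 -3.60, SE 1.04, adjusted p = 0.00846), and the latter difference did not pass without splenic CD4+ DC replicate 2 (adjusted p = 0.0512). Leaving out single libraries moved the first log2 value to between -8.11 and -3.94 and the second to between -7.24 and -2.83. LN CD11b+ DCs exceeded splenic CD8+ DCs (log2 2.27, SE 0.85, adjusted p = 0.0405) with overlapping libraries, a call that was lost without splenic CD8+ DC replicates 1 (0.0931) or 2 (0.132) and without LN CD11b+ DC replicates 1 (0.168) or 2 (0.0792).

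Pros1 (ENSMUSG00000022912, chr16:62854307-62929346, plus strand) encodes protein S, an anticoagulant plasma protein that bridges to MerTK and TYRO3. The monocyte libraries held 71.4, 70.3 and 67.9 CPM. The DC libraries held 3.47, 3.78 and 2.06 CPM (splenic CD8+), 2.45, 0.852 and 3.66 CPM (splenic CD4+), 2.93, 1.64 and 2.49 CPM (LN CD103+) and 4.41, 5.87 and 6.63 CPM (LN CD11b+). Every monocyte library was thus over 10 times the highest DC library, and the spread between monocyte libraries was small.

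Monocytes exceeded LN CD11b+ DCs, the next subtype in the order, 12.4-fold (log2 3.65, SE 0.35, adjusted p = 8.41e-08), and splenic CD4+ DCs 30.1-fold (log2 4.89, SE 0.38, adjusted p = 8.55e-09). Among the DCs, splenic CD8+ DCs were not shown to differ from their neighbours LN CD11b+ DCs (adjusted p = 0.0717) or LN CD103+ DCs (adjusted p = 0.421), nor LN CD103+ from splenic CD4+ DCs (adjusted p = 0.999). The libraries of LN CD11b+ and splenic CD8+ DCs did not overlap, and their difference passed with DESeq2 (adjusted p = 0.0408) and without splenic CD4+ DC replicate 2 (0.0284) or 3 (0.0479). LN CD11b+ DCs exceeded LN CD103+ DCs 2.4-fold (adjusted p = 0.0354) and splenic CD4+ DCs 2.43-fold (adjusted p = 0.017). The first of these was lost on leaving out any of 7 libraries, with the highest adjusted p of 0.164 without LN CD103+ DC replicate 2, and the other without splenic CD4+ DC replicate 2 (adjusted p = 0.0652). Of 7 monocyte markers 6 were higher in LN CD11b+ DCs than in either subtype. The list summed to a mean of 542 CPM in LN CD11b+ DCs, against 59.0 CPM in LN CD103+ and 545 CPM in splenic CD4+ DCs. Its sum was thus lower in LN CD103+ DCs only. The part of these markers in the Pros1 differences was not tested.

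Megakaryocytes and platelets also hold Pros1 and Cd36 transcripts. The 7 markers of this lineage summed to 0.787, 0.292 and 1.58 CPM in monocytes, with Gp5 at 0, and to at most 4.30 CPM in any DC library. The gate without lineage markers is meant to remove other blood cells. The 6 neutrophil markers, led by Ngp (99.3 CPM), summed to 162, 141 and 237 CPM in monocytes, where 5 of 6 had a count in every library, against 1.49 or less in DC libraries. The neutrophil list was thus higher in the monocyte libraries, as Pros1 was, and its part in the Pros1 level was not tested.

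Mfge8 (ENSMUSG00000030605, chr7:79133769-79149060, minus strand) encodes MFG-E8, a secreted bridge from phosphatidylserine to integrins. Its level was 14, 14.2 and 14.9 CPM for CD8+ and 14.6, 24.9 and 12.7 CPM for CD4+ DCs of the spleen, and 21.4, 24 and 28.9 CPM in monocytes. LN CD103+ DCs held 716, 805 and 633 CPM and LN CD11b+ DCs 353, 520 and 206 CPM. The 6 LN libraries were therefore all above the 9 splenic ones, with the lowest LN library at 206 and the highest splenic library at 28.9 CPM.

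Among DC1, Mfge8 was 50.1-fold higher in LN than in spleen (log2 5.64, SE 0.34, adjusted p = 4.06e-10), and among DC2 20.7-fold (log2 4.38, SE 0.32, adjusted p = 1.06e-08). LN CD103+ DCs exceeded LN CD11b+ DCs 2.00-fold (log2 1.00, SE 0.27, adjusted p = 0.0204), but this call did not hold without LN CD103+ DC replicate 2 (adjusted p = 0.0816) or without LN CD11b+ DC replicates 1 (0.0647) or 3 (0.0857). The 3 splenic subtypes were not shown to differ in neighbouring steps (adjusted p = 0.153 and 0.538), of which the first, from monocytes to CD4+ DCs, passed without splenic CD4+ DC replicate 2 (0.0303). However, monocytes exceeded splenic CD8+ DCs 1.73-fold (adjusted p = 0.0363), a call lost on leaving out any of 5 libraries (adjusted p = 0.0657 to 0.129). Follicular DCs and fibroblasts are known sources of Mfge8, which a gate on CD45+ cells should remove. Their markers, whose sums are given beside Tyro3, were higher in the LN libraries, where Mfge8 was high too, and their part in its level was not tested.

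Timd4 (ENSMUSG00000055546, chr11:46810800-46844332, plus strand) encodes TIM-4, which tethers apoptotic cells by binding phosphatidylserine. LN CD103+ DCs held 61.5, 63.8 and 60.6 CPM and LN CD11b+ DCs 17.9, 20.8 and 15.9 CPM. In the spleen CD8+ DCs held 2.99, 5.4 and 2.4 CPM and CD4+ DCs 3.74, 5.11 and 6.99 CPM. Monocytes had 0, 5 and 2 counts, or 0.25 ± 0.243 CPM (SD, n = 3). The subtypes did not overlap except for the pair of splenic DCs, which were not shown to differ (adjusted p = 0.26).

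In DC1, Timd4 was 17.2-fold higher in LN (log2 4.11, SE 0.35, adjusted p = 2.05e-08), and in DC2 3.45-fold (log2 1.80, SE 0.33, adjusted p = 0.000329). The DC1 effect was the larger by 2.32 on the log2 scale (SE 0.46, adjusted p = 0.0029). In the LN, CD103+ DCs exceeded CD11b+ DCs 3.41-fold (log2 1.76, SE 0.31, adjusted p = 0.000592), and splenic CD8+ DCs exceeded monocytes 14.4-fold (adjusted p = 1.9e-05). For monocytes minus splenic CD8+ DCs the log2 difference of -3.51 ranged from -4.36 to -3.12 over left-out libraries. With limma on log2(TPM + 0.1) the LN difference (adjusted p = 0.0571) and the difference between the organ effects (adjusted p = 0.0715) did not pass. Timd4 was raised in LN together with the T cell and stromal lists given beside Tyro3, whose part was not tested.

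Havcr2 (ENSMUSG00000020399, chr11:46454935-46481255, plus strand) encodes TIM-3, a phosphatidylserine receptor that also serves as an inhibitory receptor on T cells and DCs. In splenic CD8+ DCs it was read at 855, 876 and 721 CPM, in splenic CD4+ DCs at 576, 659 and 316 CPM and in monocytes at 98.1, 136 and 106 CPM. LN CD103+ DCs held 53, 39.7 and 28.2 CPM and LN CD11b+ DCs 59.7, 46.2 and 37.3 CPM. Each splenic library, the monocytes included, lay above each LN library, which is the reverse of Timd4 and Mfge8 among the DCs.

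Within DC1, Havcr2 was 20.3-fold lower in LN than in spleen (log2 -4.34, SE 0.31, adjusted p = 2.43e-09), and within DC2 10.8-fold lower (log2 -3.43, SE 0.29, adjusted p = 6.55e-08). The organ effects of both lineages were not shown to differ (log2 -0.91, SE 0.38, adjusted p = 0.139), but with the replicate number as a block their difference passed (log2 -0.97, adjusted p = 0.03). The LN subtypes were not shown to differ (adjusted p = 0.639). The splenic DC subtypes did not pass the threshold either (log2 0.66, SE 0.27, adjusted p = 0.0719), although their libraries did not overlap. With the same block this difference passed (log2 0.71, adjusted p = 0.0109), as it did without splenic CD4+ DC replicate 2 (log2 0.87, adjusted p = 0.0389). Erythroid transcripts, a sign of red cell carry-over in splenic digests, were read beside this gene: the 6 markers, led by Hbb-bs except in LN CD103+ DCs, summed to 146, 28.7 and 67.5 CPM for splenic CD8+, 239, 35.6 and 126 CPM for splenic CD4+, 3.91, 10.9 and 1.82 CPM for LN CD103+ and 11.7, 58.5 and 34.3 CPM for LN CD11b+ DCs. In monocytes, where Havcr2 lay above every LN library, they summed to 5.70, 3.99 and 5.66 CPM. The part of this list in the Havcr2 difference was not tested.

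Havcr2 and Timd4 lie on chromosome 11 together with Havcr1, which encodes TIM-1, and Timd2. Counted from the start of Havcr2, Timd2 starts 214 kb, Havcr1 280 kb and Timd4 356 kb further along the plus strand. Havcr1, like Timd4 and unlike Havcr2, was higher in LN than in splenic DCs of both lineages: it held 29.0 ± 4.41 CPM (SD, n = 3) for CD103+ and 11.7 ± 7.12 CPM for CD11b+ DCs of the LN, and 1.27 ± 0.940 CPM for CD8+ and 0.342 ± 0.296 CPM for CD4+ DCs of the spleen. It was 22.8-fold higher in LN than in spleen among DC1 (adjusted p = 6.66e-06) and 34.1-fold among DC2 (adjusted p = 3.14e-05), with 7 counts in all in splenic CD4+ DCs. Havcr1 would not have passed the filter on low counts without LN libraries. As for Tyro3, these tests are therefore no independent evidence of a difference from the spleen. Timd2 had 12 counts or fewer in each subtype and did not pass the filter on low counts.

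The promoters of Timd4, Mfge8 and Havcr2 are shown because these 3 genes had the widest LN to spleen differences within DC1 among those past the threshold, the first pair upward and the last downward. Each is the 250 bases before the RefSeq transcription start (GRCm38.p6), read 5′ to 3′ on the strand of the gene: chr11:46810549-46810798, plus strand, for Timd4, chr7:79149061-79149310, minus strand, for Mfge8 and chr11:46454681-46454930, plus strand, for Havcr2. All 9 genes had an entry. Capitals mark matches to any of 7 motifs searched on both strands.
Timd4: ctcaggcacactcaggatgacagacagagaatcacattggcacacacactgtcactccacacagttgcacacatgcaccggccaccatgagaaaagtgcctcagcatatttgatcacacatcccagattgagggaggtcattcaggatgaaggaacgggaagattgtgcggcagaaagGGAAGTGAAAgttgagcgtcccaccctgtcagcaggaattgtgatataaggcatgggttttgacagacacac
Mfge8: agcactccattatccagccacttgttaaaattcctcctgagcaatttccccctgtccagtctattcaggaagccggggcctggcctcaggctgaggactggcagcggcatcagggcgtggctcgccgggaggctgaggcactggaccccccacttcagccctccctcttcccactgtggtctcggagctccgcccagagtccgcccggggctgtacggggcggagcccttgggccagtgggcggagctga
Havcr2: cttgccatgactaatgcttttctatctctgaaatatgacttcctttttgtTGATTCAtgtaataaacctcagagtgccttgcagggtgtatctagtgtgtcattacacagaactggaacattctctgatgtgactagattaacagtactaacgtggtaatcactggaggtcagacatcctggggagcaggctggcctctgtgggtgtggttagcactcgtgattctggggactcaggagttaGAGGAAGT
The Timd4 window held 1 composite motif of PU.1 and IRF factors (GGAA and GAAA set 2 bases apart), 72 to 63 bases before the start, which 2.30% of 32851 windows of this length held. The Havcr2 window held the PU.1 motif GAGGAAGT in its last 8 bases (2.44% of windows) and the AP-1 motif TGANTCA 200 to 194 bases before the start (6.75% of windows), which reads as a match on both strands. The Mfge8 window and those of the other 6 genes held none of the 7. The remaining motifs were those of interferon response factors (2.98% of windows), which can overlap the composite one, of NF-kB (0.356%), and the direct repeats of AGGTCA spaced by 1 base for PPAR-RXR (0.0335%) and by 4 bases for LXR-RXR (0.0152%). A match describes letters in the window and is no evidence of binding.

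Cd36 (ENSMUSG00000002944, chr5:17781690-17888959, minus strand) encodes a scavenger receptor that takes up fatty acids, oxidised lipoproteins and apoptotic cells. It was read at 340, 540 and 537 CPM in splenic CD8+ DCs, against 7.22, 22.2 and 9.82 CPM in splenic CD4+ DCs. LN CD103+ DCs held 129, 145 and 121 CPM, LN CD11b+ DCs 30.8, 29.3 and 38.5 CPM and monocytes 47.8, 58.6 and 33.2 CPM. Both DC1 subtypes lay above all DC2 and monocyte libraries, and monocytes overlapped LN CD11b+ DCs.

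Cd36 was 36.1-fold higher in DC1 than in DC2 in the spleen (log2 5.19, SE 0.36, adjusted p = 1.02e-08) and 4.01-fold higher in the LN (log2 2.01, SE 0.31, adjusted p = 0.000222). Its organ differences ran in opposite directions. It was 3.59-fold lower in LN than in splenic DC1 (log2 -1.84, SE 0.31, adjusted p = 7.3e-05) and 2.51-fold higher in LN than in splenic DC2 (log2 1.34, SE 0.33, adjusted p = 0.0037), and these effects differed by -3.18 on the log2 scale (SE 0.45, adjusted p = 0.000128). Over left-out libraries the DC2 organ difference ranged from log2 1.03 to 1.95 and the difference of effects from -3.79 to -2.88. The difference between splenic CD8+ and CD4+ DCs ranged from log2 4.88 to 5.8. In the order of mean levels only monocytes and LN CD11b+ DCs were neighbours that were not shown to differ (adjusted p = 0.184). The platelet list given beside Pros1 summed to 3.94, 3.91 and 1.72 CPM in splenic CD8+ DCs, against 0.387, 0.682 and 0.167 CPM in splenic CD4+ DCs. Both of its 2 tested genes were higher in the former, as Cd36 was, and its part in the Cd36 difference was not tested.

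Set side by side per length, a different gene of the 9 led in each organ among the DCs. Havcr2 was the most abundant in splenic CD8+ DCs (723 ± 77.1 TPM, SD, n = 3), splenic CD4+ DCs (463 ± 127 TPM) and monocytes (107 ± 15.8 TPM). Mfge8 led in LN CD103+ DCs (762 ± 72.8 TPM) and LN CD11b+ DCs (399 ± 149 TPM). Cd36 came next in both DC1 subtypes, with 288 ± 62.9 TPM in spleen and 75.6 ± 5.24 TPM in LN, and Axl came next in both DC2 subtypes and in monocytes, with 37.4 ± 9.83, 78.4 ± 11.1 and 61.0 ± 12.1 TPM. The 9 genes together summed to 1048 ± 55.5 TPM in splenic CD8+ DCs, 953 ± 82.6 TPM in LN CD103+ DCs, 580 ± 159 TPM in LN CD11b+ DCs, 548 ± 120 TPM in splenic CD4+ DCs and 275 ± 8.77 TPM in monocytes.

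**Figure D2:**
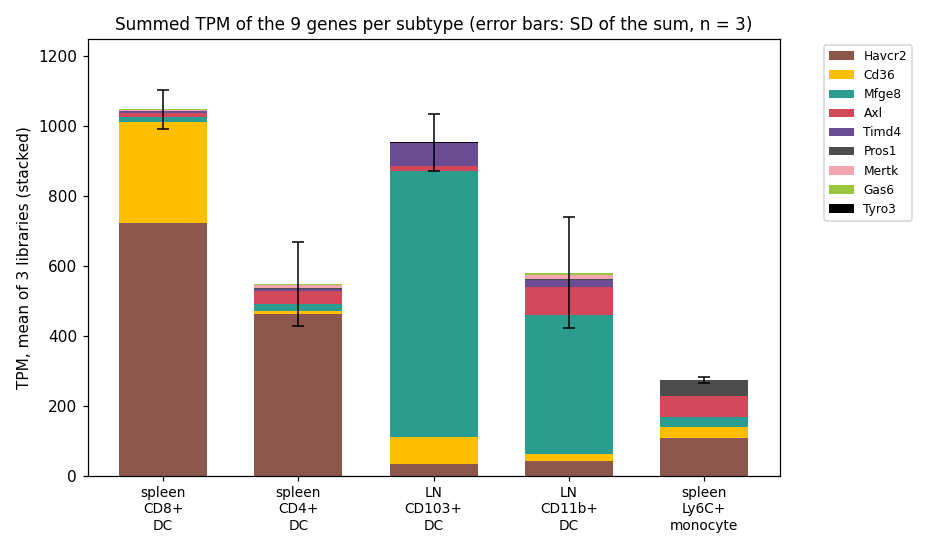
Stacked bars give the mean TPM (linear axis from 0) of the 9 genes in each subtype over 3 libraries, one colour per gene, with the SD of the sum as error bar. As the mean of the shares in single libraries, Havcr2 makes up 68.9% in splenic CD8+ and 83.6% in splenic CD4+ DCs, Mfge8 79.9% in LN CD103+ and 67.4% in LN CD11b+ DCs, and in monocytes Havcr2 has 38.9%, Axl 22.3% and Pros1 16.1%.

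For each gene 2 or 3 tested genes of similar pattern are given, from the 3 whose log2 CPM lay closest across the 15 libraries by root mean square, after subtraction of each gene's own mean. For Axl they were Gm13212 (0.478), Ctsd (0.489) and Maf (0.504), for Mertk Ralgds (0.729), Itga9 (0.744) and Acp5 (0.817), and for Tyro3 Fstl1 (0.486), Tnfsf11 (0.523) and Tcrg-C1 (0.542). The nearest to Gas6 were Maged2 (0.689), Slc7a4 (0.790) and Dusp9 (0.794), and to Pros1 Aplnr (0.510), Ccdc88c (0.545) and Stox2 (0.596). Near Timd4 lay Basp1 (0.603) and Gm16617 (0.667), near Havcr2 Kif23 (0.474), Ckb (0.521) and Rubcnl (0.547), and near Cd36 Ifi205 (0.630), Pde1b (0.667) and Irf8 (0.721). Near Mfge8 stood ENSMUSG00000048790 (0.503), which had no symbol here, and Il15ra (0.525). The values are in log2 units, against standard deviations of 1.10 (Axl) to 2.47 (Timd4 and Mfge8) for the 9 genes themselves. Tyro3 had no count in any splenic library, where its log2 CPM is set by the prior count of 2. Its distances therefore cannot be set beside those of well-counted genes.

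The comparison of DC lineages within an organ asked which uptake genes separate DC1 from DC2. In the spleen 3 of the 9 genes passed the threshold, Cd36 upward in CD8+ DCs and Axl and Mertk downward. Of all 14456 genes 27.4% passed (13.1% upward and 14.4% downward), so this count lies near that of all genes. In the LN 6 of the 9 passed, with Timd4, Cd36 and Mfge8 higher in CD103+ DCs and Axl, Mertk and Pros1 lower, beside 12.9% of all genes (5.22% upward, 7.73% downward). The median log2 difference of the 9 genes was -0.27 in spleen and -1.25 in LN, against 0 and -0.01 over all genes. Setting genes at 0 counts in a subtype to their floor left these medians of the 9 genes unchanged, here and in the following comparisons.

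Other genes of apoptotic cell uptake were taken from 10 lists of 119 genes, of which 106 were tested, and they were lower in DC1 more often than higher. Of all genes 27.4% passed in the spleen and 12.9% in the LN. In the spleen 18 of the 106 were higher in CD8+ than in CD4+ DCs and 34 lower (median log2 -0.30), and in the LN 5 were higher in CD103+ than in CD11b+ DCs and 33 lower (median log2 -0.25). Tissue macrophage markers moved the same way, with 8 of 10 tested lower and 0 higher in DC1 in each organ, and 6 of 7 monocyte markers were lower in LN CD103+ than in LN CD11b+ DCs. The part of such cells in these counts was not tested. Among 20 other receptors for dead cells, 3 rose and 9 fell in splenic CD8+ DCs. Clec9a, which binds actin filaments exposed by necrotic cells, was 38.5-fold higher there (288 against 7.46 CPM, adjusted p = 3.52e-10), and Cd300lf, a phosphatidylserine receptor, was 9.24-fold lower (adjusted p = 5.92e-05). Clec9a is also on the DC1 list used to check the labels. Among the same 20, 1 rose and 10 fell in LN CD103+ DCs, with the scavenger receptor Msr1 29.3-fold lower (adjusted p = 2.09e-07) and Cd300a 28.7-fold lower (adjusted p = 4.95e-09) than in LN CD11b+ DCs.

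Bridges and opsonins other than the members divided by lineage too, beside 27.4% of all genes past the threshold in spleen and 12.9% in LN. Of 11 tested, 3 were higher and 4 lower in splenic CD8+ DCs, with Lgals3, which encodes galectin-3, 5.13-fold (adjusted p = 0.000125), Anxa1 3.47-fold (adjusted p = 1.76e-05) and Calr 3.34-fold higher (adjusted p = 1.01e-05). In the LN 4 of 11 were lower in CD103+ DCs and 0 higher, among them the complement subunits C1qa, 19.5-fold (adjusted p = 2.85e-05), C1qb, 15.7-fold (adjusted p = 2.68e-07), and C1qc, 12.1-fold (adjusted p = 8.82e-07). C1qa is also on the tissue macrophage list. Do-not-eat signals were split: of 5 genes, Cd24a was 14.1-fold higher (adjusted p = 2.41e-08) and Sirpa 19.8-fold (adjusted p = 1.89e-08) and Siglecg 3.94-fold lower (adjusted p = 0.000162) in splenic CD8+ DCs. Sirpa, the receptor for CD47, was also 49.4-fold lower in LN CD103+ than in LN CD11b+ DCs (adjusted p = 1.05e-08). Sirpa is also on the DC2 list used to check the labels.

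Downstream of binding, the lists stand beside 27.4% of all genes past the threshold in spleen and 12.9% in LN. The engulfment list held 17 tested genes. Of these, 2 rose and 6 fell in splenic CD8+ DCs, and 2 rose and 3 fell in LN CD103+ DCs. Dock1, a Rac exchange factor for engulfment, was lower in DC1 in both organs, 3.52-fold in spleen (adjusted p = 0.00122) and 5.81-fold in LN (adjusted p = 3.89e-05), whereas Src was higher in LN CD103+ DCs, 4.6-fold (adjusted p = 0.000738). For LC3-associated phagocytosis 2 of 13 rose and 6 fell in spleen, and 0 rose and 1 fell in LN. That gene was Cybb, a subunit of the phagocyte NADPH oxidase, 3.35-fold lower in splenic (adjusted p = 0.0011) and 11.6-fold lower in LN DC1 (adjusted p = 4.16e-06). Of 13 genes of lipid handling, 4 rose and 4 fell in spleen and 1 rose and 7 fell in LN. Fabp5, a fatty acid carrier, was 8.80-fold lower in splenic CD8+ DCs (adjusted p = 2.56e-07), and Fabp4 16.2-fold (adjusted p = 2.19e-05) and the LXR gene Nr1h3 8.86-fold lower (adjusted p = 0.000155) in LN CD103+ DCs.

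The smaller lists stand beside 27.4% of all genes past the threshold in spleen and 12.9% in LN. In spleen their counts lay near or below that share. Of 9 genes of TAM shedding and feedback, 1 rose and 2 fell in spleen and 1 rose and 1 fell in LN, with Socs3, an inhibitor of cytokine signalling, 2.56-fold (adjusted p = 0.0108) and 6.47-fold lower (adjusted p = 3.76e-05). Of 6 receptors for find-me signals, 1 rose in spleen, the nucleotide receptor P2ry6 (2.80-fold, adjusted p = 0.00677), and 4 fell in LN, among them the fractalkine receptor Cx3cr1 (17.3-fold, adjusted p = 2.92e-07). Among 8 scramblase and flippase genes 1 rose (Ano6, 1.58-fold, adjusted p = 0.0277) and 1 fell (Atp11b, 1.62-fold, adjusted p = 0.0288) in spleen, and Ano6 fell in LN (1.76-fold, adjusted p = 0.0185). The 4 genes of vitamin K dependent carboxylation, which activates GAS6 and protein S, gave 0 calls in spleen and 1 in LN, where Vkorc1 was 2.68-fold lower in CD103+ DCs (adjusted p = 0.00565).

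The comparison of organs within a lineage asked which uptake genes differ between LN and splenic DCs. All 5 markers of migratory or mature DCs were higher in LN in both lineages (median log2 5.89 in DC1 and 4.76 in DC2). The part of this state in the organ differences was not tested. In DC1, 5 of the 9 passed, with Timd4 and Mfge8 higher in LN and Mertk, Havcr2 and Cd36 lower, beside 45.6% of all genes (23.8% upward, 21.8% downward). In DC2, 7 of the 9 passed, or 6 of 8 without Tyro3, with Axl, Pros1, Timd4, Cd36 and Mfge8 higher in LN and Havcr2 lower, beside 33.1% of all genes (19.3% upward, 13.8% downward). The median log2 difference of the 9 genes was 0.36 in DC1 and 1.25 in DC2, against 0 and 0.05 over all genes. The test of the difference between both organ effects was passed by 4 of the 9 genes, Mertk, Timd4, Cd36 and Mfge8, and by 11.2% of all genes. The Mfge8 call was lost on leaving out any of 12 libraries. With the replicate block 6 passed, Pros1 (log2 -1.68, adjusted p = 0.0489) and Havcr2 being the ones added, while the count over all genes went from 1620 to 2152. The median of this difference was -0.91 for the 9 genes and -0.07 over all genes.

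**Figure D3:**
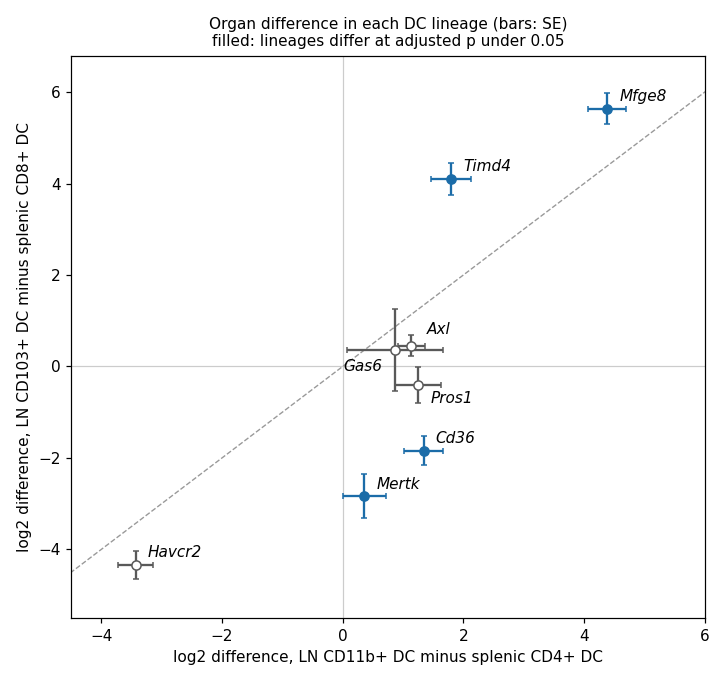
The log2 difference between LN and spleen (with SE) in the DC2 lineage is on the horizontal axis and that in the DC1 lineage on the vertical axis, and the dashed line marks equal effects. Filled points are the 4 genes whose lineages differed, of which Cd36 lies at 1.34 and -1.84, and Tyro3 is left out because its splenic counts were 0.

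The other uptake genes gave 31 higher and 36 lower of 106 in LN against splenic DC1 (median log2 0.11, or 0.08 with genes at 0 counts set to their floor) and 43 higher and 17 lower in LN against splenic DC2 (median log2 0.33). Of all genes 45.6% passed in DC1 and 33.1% in DC2. In DC2 6 of 7 monocyte markers and 6 of 6 T cell markers were higher in LN too, and in DC1 the same 6 T cell markers were. The summed monocyte list was alike in both DC2 subtypes, as given beside Axl. Other lists fell in LN DC1, with 4 of 5 tested erythroid markers lower and 0 higher. Of 7 monocyte markers 4 were lower and 1 higher there, and of 10 tissue macrophage markers 4 were lower and 1 higher. The part of such cells in these counts was not tested. The difference between these effects passed in 31, with 6 upward and 25 downward (median log2 -0.29, or -0.26 with the floor). Among 20 other receptors for dead cells, 5 rose and 9 fell in LN DC1, with Cd300a 39.5-fold (adjusted p = 1.29e-10) and the lipoprotein receptor Scarb1 17.3-fold lower (adjusted p = 1.42e-08). In LN DC2, 10 of the 20 rose and 7 fell. Stab1, which encodes the phosphatidylserine receptor stabilin-1, was 9.30-fold higher (adjusted p = 0.00715), and Cd300lf was 13.7-fold lower (adjusted p = 9.31e-06).

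In lipid handling, Fabp5 was 58.8-fold higher in LN DC1 (161 against 2.73 CPM, adjusted p = 1.29e-10) and 15.7-fold higher in LN DC2 (378 against 24.1 CPM, adjusted p = 4.02e-09). In that list 4 of 13 rose and 3 fell in DC1, where the cholesterol exporter Abcg1 was 7.16-fold higher (adjusted p = 1.09e-08) and the lysosomal lipase Lipa 5-fold lower (adjusted p = 8.03e-06). In DC2, 7 of 13 rose and 1 fell, with Fabp4 20.2-fold (adjusted p = 3.18e-06) and Npc2 6.46-fold higher (adjusted p = 1.27e-05). Fabp4 is also on the alveolar macrophage list, of which 3 of 4 tested genes were higher in LN DC2, and the part of such cells was not tested. Of 11 bridges, 3 rose and 6 fell in DC1 and 7 rose and 1 fell in DC2. The lipid and bridge counts stand beside 45.6% of all genes past the threshold in DC1 and 33.1% in DC2. Thbs1, which encodes thrombospondin-1, a ligand of CD36, was 34.8-fold higher in LN DC1 (adjusted p = 0.000113), from 0.438 CPM in spleen, and 11.6-fold higher in LN DC2 (adjusted p = 0.00174).

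Engulfment signalling gave 5 higher and 6 lower of 17 in LN DC1 and 5 higher and 4 lower in LN DC2. This list and those that follow stand beside 45.6% of all genes past the threshold in DC1 and 33.1% in DC2. Src was 36.0-fold higher in LN DC1 (adjusted p = 4.4e-08) and 14.4-fold higher in LN DC2 (adjusted p = 6.14e-06), and Dock1 3.67-fold (adjusted p = 0.00034) and 6.05-fold higher (adjusted p = 8.84e-06). Rubcn, which encodes Rubicon of LC3-associated phagocytosis, was 4.92-fold higher in LN DC1 (adjusted p = 9.6e-08) and 2.61-fold higher in LN DC2 (adjusted p = 5.24e-05), in a list of 13 with 5 higher and 2 lower in DC1 and 2 higher and 0 lower in DC2. Of 9 genes of TAM shedding and feedback, 4 rose and 0 fell in DC1 and 3 rose and 1 fell in DC2. The TAM count in DC1 lay near the share of all genes, and the count for LC3-associated phagocytosis in DC2 below it. Socs1 was 3.92-fold (adjusted p = 0.000245) and 11.8-fold higher (adjusted p = 3.54e-06), and Socs3 2.90-fold (adjusted p = 0.0022) and 7.33-fold higher (adjusted p = 5.87e-06) in DC1 and DC2.

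The remaining lists were smaller, and stand beside 45.6% of all genes past the threshold in DC1 and 33.1% in DC2. Of 6 receptors for find-me signals 2 rose and 4 fell in LN DC1 and 3 rose and 0 fell in LN DC2, with S1pr1, a sphingosine-1-phosphate receptor, 30.4-fold (adjusted p = 1.22e-06) and 13.3-fold higher (adjusted p = 5.5e-05). Of 5 do-not-eat genes 1 rose and 3 fell in DC1 and 2 rose and 3 fell in DC2, with Pecam1 8.67-fold (adjusted p = 7.26e-06) and 8.53-fold lower (adjusted p = 1.37e-05). Pecam1 is also on the endothelial list, which it leads in the splenic DCs. Of 8 scramblase and flippase genes 2 rose and 2 fell in DC1 and 2 rose and 0 fell in DC2, and the flippase Atp11a was 6.12-fold (adjusted p = 1.44e-08) and 4.49-fold higher (adjusted p = 3.01e-07) in LN. Of 4 carboxylation genes 1 fell in DC1 (Vkorc1, 2.43-fold, adjusted p = 0.0031) and 2 rose in DC2, among them Ggcx, the carboxylase itself (1.84-fold, adjusted p = 0.0411).

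**Figure D4:**
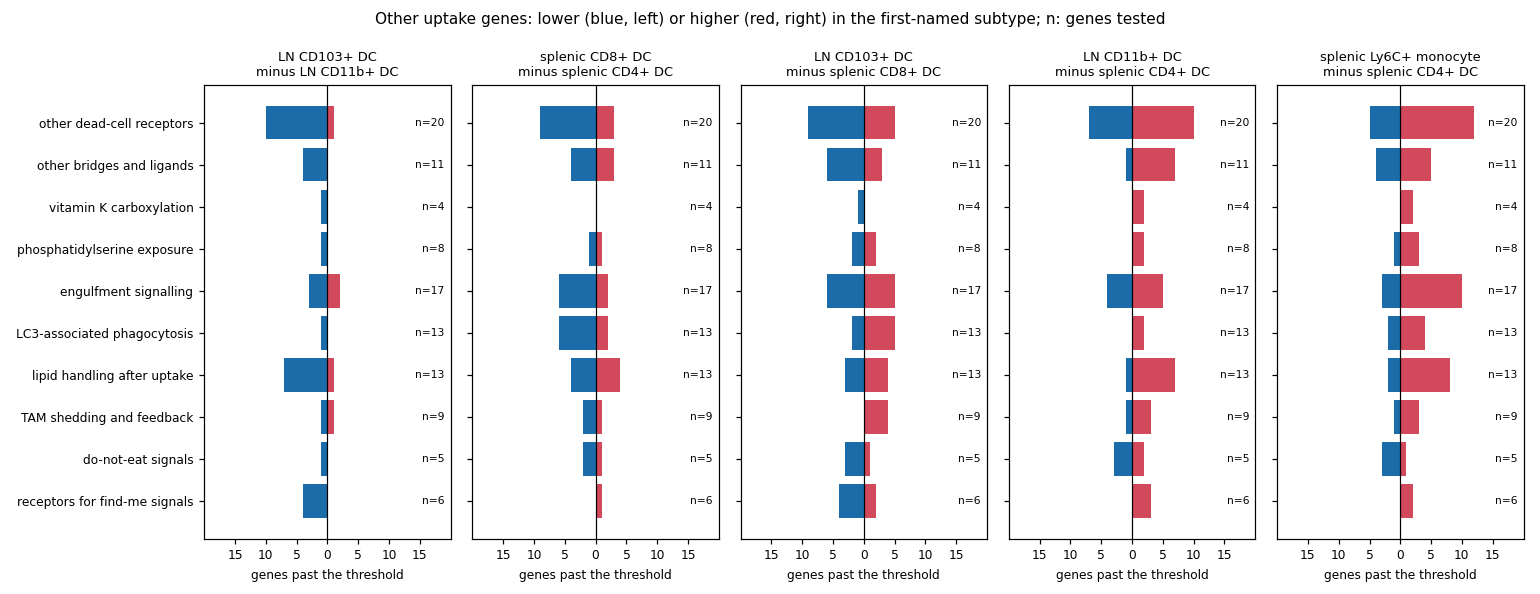
For 5 comparisons (panels), horizontal bars count the genes of each of the 10 uptake lists that passed adjusted p under 0.05, to the right when higher and to the left when lower in the first-named subtype, with the number tested at the edge. In the panel of the LN subtypes 33 of 106 genes lie to the left and 5 to the right, and in the monocyte panel 50 lie to the right and 21 to the left.

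Monocytes were compared with each DC subtype. Against splenic CD8+ DCs 7 of the 9 genes passed, with Axl, Pros1 and Mfge8 higher and Mertk, Timd4, Havcr2 and Cd36 lower, beside 42.1% of all genes. Against splenic CD4+ DCs 7 passed, with Axl, Pros1 and Cd36 higher and Mertk, Gas6, Timd4 and Havcr2 lower, beside 48.0% of all genes (23.8% upward, 24.2% downward). Against LN CD103+ DCs 7 passed, with Axl, Mertk, Pros1 and Havcr2 higher and Timd4, Cd36 and Mfge8 lower, beside 53.2%, and against LN CD11b+ DCs 7 passed, or 6 of 8 without Tyro3, with Pros1 and Havcr2 higher and Mertk, Gas6, Timd4 and Mfge8 lower, beside 47.8%. These 4 comparisons share the monocyte libraries. In all 4, Pros1 was higher and Timd4 lower, with Timd4 248-fold lower than in LN CD103+ DCs (log2 -7.62, SE 0.47, adjusted p = 1.41e-10). This Timd4 difference rests on 7 monocyte counts and ranged from log2 -8.48 to -7.26 over left-out libraries.

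Of the other 106 uptake genes 50 were higher and 21 lower in monocytes than in splenic CD4+ DCs (median log2 0.54, against -0.01 over all genes). Past the threshold in this comparison were 48.0% of all genes. Markers of other cells moved too: 4 of 4 tested neutrophil markers were higher in monocytes, and 5 of 5 erythroid markers lower. Of 4 alveolar macrophage markers 3 were higher and 1 lower, and of 10 tissue macrophage markers 2 were higher and 5 lower. The part of such cells in these counts was not tested. Among 20 receptors for dead cells, 12 rose and 5 fell, led by Trem2, a lipid receptor of myeloid cells, which was at 75.5 ± 1.57 CPM (SD, n = 3) in monocytes and had no count in the other subtype, which makes it at least 494-fold higher (adjusted p = 8.17e-09). Among 11 bridges, 5 rose and 4 fell, with Thbs1 533-fold higher (636 against 1.19 CPM, adjusted p = 6.18e-08) and C1qc 16.9-fold lower (adjusted p = 5.71e-08). Cx3cr1 was 34.6-fold higher (adjusted p = 6.67e-10), 1 of 2 receptors for find-me signals that rose, with 0 lower. Cybb was 5.4-fold higher (adjusted p = 1.99e-05) among 4 higher and 2 lower genes of LC3-associated phagocytosis.

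In engulfment signalling 10 of 17 were higher in monocytes than in splenic CD4+ DCs and 3 lower, with the kinase gene Ptk2 34.1-fold lower (adjusted p = 8.69e-09) and Dock1 5.14-fold higher (adjusted p = 1.37e-05). Of 13 genes of lipid handling, 8 rose and 2 fell, with Npc2, a cholesterol carrier of lysosomes, 11.2-fold (adjusted p = 4.59e-07) and Pparg 10.5-fold higher (adjusted p = 1.4e-05). TAM shedding and feedback gave 3 higher and 1 lower of 9, with Socs3 8.99-fold higher (adjusted p = 1.06e-06). Of 5 do-not-eat genes 1 rose and 3 fell, with Siglecg 24.4-fold lower (adjusted p = 1.42e-08). Scramblases and flippases gave 3 higher and 1 lower of 8, and carboxylation genes 2 higher and 0 lower of 4, with Ggcx 2.30-fold higher (adjusted p = 0.00446). Past the threshold were 48.0% of all genes, and the TAM, scramblase and carboxylation counts lay near that share.

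DC pairs that differ in both lineage and organ were set beside these. Between LN CD11b+ and splenic CD8+ DCs 8 of the 9 genes passed, or 7 of 8 without Tyro3, with Axl, Mertk, Gas6, Timd4 and Mfge8 upward in LN CD11b+ DCs and Havcr2 and Cd36 downward, beside 39.9% of all genes. Between LN CD103+ and splenic CD4+ DCs 6 passed, Timd4, Cd36 and Mfge8 upward in LN CD103+ DCs and Axl, Mertk and Havcr2 downward, beside 47.0% of all genes. Mertk was 23.9-fold lower in LN CD103+ than in splenic CD4+ DCs (log2 -4.55, SE 0.48, adjusted p = 2.97e-07), and Mfge8 41.4-fold higher (log2 5.37, SE 0.33, adjusted p = 5.18e-10).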

How the data were processed

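RNA was sequenced from 15 libraries, assigned to 5 subtypes by their titles. The count values were deposited by the authors, who sequenced polyA RNA from a SMARTer kit on Ion Torrent, mapped it to mm10 with STAR 2.4.0j and counted unique reads per Ensembl gene with featureCounts (Subread 1.5.2), without strand, a read that overlaps several genes counting for each. No exon of the 9 genes overlapped another gene. The TPM values were deposited by the authors and are the counts per exon length, scaled to the same sum in every library. Each monocyte library had 2 sequencing runs, which were summed, and the runs summed to the deposited counts in 15 of 15 libraries. Of 38924 identifiers, 37607 (96.6%) had a symbol. Libraries that did not come from these 5 subtypes were not used here.

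The filter kept 14456 genes, those above 1 CPM in 3 or more libraries, and edgeR 4.0.16 tested them in R 4.3.3: TMM factors (0.883 to 1.10), one quasi-likelihood model of all 15 libraries, 11 comparisons, Benjamini-Hochberg adjustment over all genes and a threshold of 0.05. The code was tested on simulated data. The spread between pools of mice is the error. Alternatives used RLE factors, DESeq2 1.42.0, other filters, limma 3.58.1 on log2 TPM, a replicate block, the compared subtypes alone and leaving out each library. Similar patterns used log2 CPM with a prior count of 2. Named list genes were the up to 3 with the largest fitted log2 difference per list and comparison among genes past the threshold with at least 10 CPM in the higher subtype, and the text gives a selection of them. The 9 genes and all lists were chosen with earlier results of these data known.

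Whether replicate numbers pair libraries was checked from the correlation of deviations from the subtype means. All 3 same-number pairs were over 0.1 for splenic CD8+ and CD4+ DCs (0.162, 0.339 and 0.375), splenic CD4+ and LN CD103+ DCs (0.117, 0.124 and 0.146), splenic CD4+ and LN CD11b+ DCs (0.197, 0.243 and 0.266) and LN CD103+ and CD11b+ DCs (0.222, 0.179 and 0.259), so the numbers were taken to pair these, from the data alone, and with them the difference of organ effects, which compares the lineages within each organ. They were not for the other 6 pairs of subtypes. Pairs of different number reached at most 0.0442. By the paper LN and spleen came from different cohorts, so a number shared across organs cannot stand for shared mice, and what it stands for is not known. The main tests used no block, and calls that the block changed are given as alternatives.

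Promoter sequences came from RefSeq. Of the marker lists not described with the results, summed CPM per library was 178 to 538 for B cells, led by Ighm, 0.12 to 14.8 for NK cells, 97.6 to 277 for plasmacytoid DCs and 5.80 to 113 for endothelium, mostly Pecam1 or Kdr. That of alveolar macrophages was 820 to 1059 in monocytes, led by Chil3, and 7.29 to 98.3 in DCs. The list of DC genes in general, led by Cd74, reached 14660 to 124100 in DCs and 7717 to 10050 in monocytes.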

Additional observations from a re-analysis of the deposited data

Results flagged for a closer look

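The LN to spleen difference was tested between the DC1 and DC2 lineages for each of the 9 genes, and 4 of them differed at an adjusted p under 0.05 (edgeR quasi-likelihood test with Benjamini-Hochberg adjustment). In the same test with the replicate number as a block 6 did, with Pros1 (adjusted p = 0.0489) and Havcr2 (adjusted p = 0.03) added. Mertk differed by -3.2 on the log2 scale: it was lower in LN than in spleen in DC1, while in DC2 its organ difference did not pass. Cd36 differed by -3.18, being lower in LN in DC1 and higher in LN in DC2. Timd4 differed by 2.32, with a higher level in LN in both lineages and the larger effect in DC1. Mfge8 differed by 1.27 (adjusted p = 0.0497), again with the larger rise in DC1, and this call is lost on leaving out any of 12 libraries (adjusted p of up to 0.147) and in the 4 subtypes alone (0.0808). What causes these differences was not tested.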

How the results depend on the processing

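Over 8 alternative settings 738 of 768 values of single genes kept their side of the threshold, 13 lost a call and 17 gained one, and 0 reversed among those past it. Leaving out single libraries gave 1452 values, with none for Tyro3 where it no longer passed the filter (3 of the libraries), of which 1389 kept theirs, 44 lost a call and 19 gained one, and again 0 reversed among those past it. Differences that did not pass could change sign, such as Mfge8 in splenic CD8+ minus CD4+ DCs (log2 -0.27, up to 0.07) and Gas6 in LN CD103+ minus splenic CD8+ DCs (0.36, down to -0.29). DESeq2 gave 98 of 99 values, filterByExpr 88, because it dropped Tyro3, and the compared subtypes alone 87.

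With the replicate number as a block, Havcr2 in splenic CD8+ minus CD4+ DCs passed (log2 0.71, adjusted p = 0.0109), raising that count of the 9 genes from 3 to 4 (all genes from 3966 to 4645), and the block changed no other call of the 4 comparisons whose libraries pair. The difference of organ effects is built from paired comparisons within each organ, and there the block raised the genes that passed from 4 to 6 (all genes from 1620 to 2152), adding Pros1 (log2 -1.68, adjusted p = 0.0489) and Havcr2 (log2 -0.97, adjusted p = 0.03). Where libraries share only a number, it ended the Gas6 call between LN CD11b+ and splenic CD8+ DCs (adjusted p = 0.0579).

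Fitted on the compared subtypes alone, genes past the threshold between splenic CD8+ and CD4+ DCs fell from 3966 to 2600. Without LN CD103+ DC replicate 2 the 1872 genes between LN CD103+ and CD11b+ DCs became 1216, and over all left-out libraries they ranged from 1216 to 2171. Counts of the 9 genes ranged over left-out libraries from 3 to 4 (splenic DCs), 4 to 6 (LN DCs), 5 to 6 (DC1 between organs), 6 to 7 (DC2 between organs) and 3 to 5 (difference of organ effects). For monocytes they ranged from 5 to 7 against splenic CD8+ and 6 to 7 against splenic CD4+ DCs. Against LN CD103+ DCs the monocyte counts were 6 to 9, and against LN CD11b+ DCs 6 to 8. Between LN CD11b+ and splenic CD8+ DCs the range was 6 to 9, and LN CD103+ against splenic CD4+ DCs stayed at 6.

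The Mfge8 difference of organ effects did not pass in the 4 subtypes alone (adjusted p = 0.0808) or on leaving out any of 12 libraries, with an adjusted p of up to 0.147 without splenic CD4+ DC replicate 2. Pros1 between LN DCs did not pass in the pair alone (adjusted p = 0.0678) or with limma (0.056 and 0.0986), nor between DC2 subtypes in that pair alone (0.13). The Pros1 difference of organ effects (0.0586) passed with DESeq2 (0.0291), with no filter (0.0318) and without replicate 3 of splenic CD8+ (0.0387) or CD4+ DCs (0.0174). With no filter Havcr2 between splenic DCs (0.0257) and Gas6 between LN DCs (0.043) passed too, and Gas6 between LN CD11b+ and splenic CD8+ DCs did not with limma on log2(TPM + 0.1) (0.0674). Gas6 between monocytes and LN CD103+ DCs (0.0531) passed with RLE factors (0.0477), DESeq2 (0.0261), no filter (0.0111) and limma on log2(TPM + 0.1) (0.0252), and on leaving out any of 6 libraries (0.0155 to 0.0486). The cause was not tested. Depth limits Tyro3 and Gas6, whose levels rest on 0 to 72 counts a library. Scaling by raw totals moved 2 of 45 levels by over 1 SD, Timd4 in LN CD103+ DCs to 56.6 CPM and Mfge8 in splenic CD8+ DCs to 15.2 CPM. Single runs moved Pros1 in monocytes to 65 and 74.3 CPM.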

Other observations

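MFG-E8 engages the integrins αvβ3 and αvβ5, whose subunit genes Itgav, Itgb3 and Itgb5 were singled out after their values were seen. Itgb5 was higher in LN than in spleen, as Mfge8 was, at 115 ± 6.02 CPM (SD, n = 3) in LN CD103+ DCs against 9.03 ± 4.14 CPM in splenic CD8+ DCs (log2 3.67, SE 0.30, adjusted p = 1.26e-08 by edgeR's quasi-likelihood test with Benjamini-Hochberg adjustment) and at 71.7 ± 20.1 CPM in LN CD11b+ DCs against 21.2 ± 2.45 CPM in splenic CD4+ DCs (log2 1.76, SE 0.28, adjusted p = 6.54e-05). Its highest mean, 209 ± 34.5 CPM, was in monocytes, where Mfge8 was low. Itgav was lower in LN than in spleen in both lineages (log2 -0.79, adjusted p = 0.00946 in DC1 and log2 -1.18, adjusted p = 0.000679 in DC2). Itgb3 was lower in LN in DC2 (log2 -2.79, SE 0.68, adjusted p = 0.00379), and in DC1 it had a log2 difference of -1.61 that did not pass (adjusted p = 0.0574).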
